A study of Mus musculus with 24 samples.

Results

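miR-126a is the microRNA (miRNA) of endothelial cells and platelets that is cut from an intron of Egfl7, and both of its arms, mmu-miR-126a-3p and mmu-miR-126a-5p, were taken by their names on the array. They are 2 of the 1881 mouse miRNAs on it and are read by 4 of its 4415 mouse miRNA probes. Liver and serum were taken from C57BL/6NJcl mice, all male, and their miRNAs were measured on 24 single-colour arrays, 12 for each tissue. The NASH group, a diet model of non-alcoholic steatohepatitis, ate a choline-deficient high-fat diet (CDAHFD) supplemented with 0.1% methionine, and the Control group ate CE-2 chow. Tissue was taken after 1, 2 and 6 weeks on the diets, at 7, 8 and 12 weeks of age, with 2 arrays for each diet and week in each tissue. The labels give no other treatment or allele, the livers were whole tissue, and the serum came from heart blood. Whether both arrays of a group hold RNA of different mice is not stated in the labels. The p-values therefore cover only the spread among the arrays, and that spread may be technical.

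A miRNA hairpin yields a 3p and a 5p arm, and the arm held by an Argonaute protein pairs through its seed with messenger RNAs, whose translation and stability it lowers. miR-126 is known as an endothelial miRNA that keeps vascular growth factor signalling and vessel integrity, with Spred1 and Pik3r2, inhibitors of the MAP kinase and PI3 kinase pathways, among the targets of its 3p arm. Its 5p arm is known from mouse arteries, where it supports the renewal of endothelial cells through Dlk1. In liver the cells known to make it line the sinusoids and larger vessels, and in blood it is carried by platelets, vesicles and proteins.

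The hairpin is shown because both arms are cut from it. The RefSeq hairpin lies at chr2:26591357-26591429 on the plus strand of GRCm38.p6, inside the span of Egfl7 on chromosome 2 (26581083 to 26592682), with the 3p arm in capitals.
mmu-mir-126a hairpin: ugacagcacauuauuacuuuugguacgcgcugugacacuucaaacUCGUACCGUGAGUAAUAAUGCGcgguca
The 22-base mature 3p arm lies at chr2:26591402-26591423, with the seed, bases 2 to 8, in capitals.
mmu-miR-126a-3p: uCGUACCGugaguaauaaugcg
Among 1679 mature mouse miRNAs in the RefSeq table, 1 holds this seed, miR-126a-3p itself. The array also names miR-126b, which RefSeq places on the opposite strand of the same hairpin. The 2 antisense arms are printed in capitals, since each is whole a reverse complement of part of the miR-126a hairpin. They lie at chr2:26591399-26591420 and chr2:26591363-26591385, on the minus strand.
mmu-miR-126b-5p: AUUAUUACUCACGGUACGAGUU
mmu-miR-126b-3p: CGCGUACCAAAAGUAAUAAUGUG
miR-126b-5p covers 19 of the positions of miR-126a-3p. The miR-126b arms were detected on 0 of 24 arrays, and the signals of their 4 probes lay between -3.73 and 0.859.

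Each of the 4 miR-126a probes was spotted 15 times, and none of their spots was saturated. The background-subtracted signal of miR-126a-3p on its brighter probe lay between 1839 and 6044 in the 6 NASH livers and between 2289 and 4446 in the 6 Control livers. It lay between 66.9 and 557 in NASH serum and between 117 and 720 in Control serum, well above background on all 24 arrays. The spots of that probe varied by a median of 3.93% in liver and 4.52% in serum (coefficient of variation within an array). The other 3p probe was dimmer by 0.40 to 0.47 (log2) on the liver arrays and by 0.42 to 0.60 on the serum arrays.

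miR-126a-5p was dim. Its brighter probe gave signals of 18.4 to 89.7 in NASH livers and 33.8 to 94.2 in Control livers, well above background on all 12, with a median spot variation of 9.16%. In serum it gave 4.92 to 25.5 on NASH arrays and 4.50 to 27.5 on Control arrays, while negative control spots averaged 2.88 to 3.50 on NASH arrays and 2.61 to 3.36 on Control arrays. It was well above background on 2 of 12 serum arrays, replicate 2 of week 1 in each diet, although the scanner's software flagged the miRNA as detected on 6 of 12. The second 5p probe was not well above background on any array. How bright 1 arm's probe was beside the other's is not compared here, because probes bind with different strength.

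Levels below are log2 values of the brighter probe relative to a scaling value of each array. That value is a 75th percentile, taken in each tissue over those probes that all its 12 arrays measured well above background (299 in liver and 253 in serum). With 2 arrays a group, the residual spread (SD) of miR-126a-3p was 0.23 in liver and 0.76 in serum, and that of miR-126a-5p in liver was 0.53. The liver markers of hepatocytes were present, miR-122-5p on 12 of 12 liver arrays at the highest level of its list. More miRNAs were detected on NASH than on Control arrays, 354.5 ± 18.6 against 288.8 ± 22.8 in liver (SD, n = 6 each; exact permutation within weeks, two-sided p = 0.00926, the smallest possible) and 347.7 ± 37.9 against 295.8 ± 49.9 in serum (n = 6 each; exact p = 0.00926). The scaling value was also higher on NASH arrays, by 0.43 in liver (exact p = 0.0185) and 0.78 in serum (exact p = 0.0278) on the log2 scale. The 24 arrays lay on 3 slides of 8. Each weekly comparison of the diets was made within 1 slide, with NASH in slide columns 2 and 4 and Control in columns 1 and 3, so diet and column cannot be told apart.

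miR-126a-3p was higher in liver than in serum, and the same difference of miR-126a-5p rests on serum values mostly not well above background. On a scale common to both tissues (163 probes well above background on all 24 arrays), the log2 level of miR-126a-3p was 1.23 ± 0.29 in liver and -1.25 ± 1.00 in serum (SD, n = 12 each). The liver arrays lay between 0.56 and 1.63 and the serum arrays between -3.38 and 0.61, so that 1 liver array lay below 1 serum array. The difference was 2.48 (SE 0.22), or 5.56-fold, with a limma adjusted p of 2.19e-07. Its size depended on the scaling, and 5 other scalings gave larger differences, between 2.94 (median centring) and 4.11 (spike-in RNA), each of which passed. Of 526 miRNAs tested, 69.4% passed in either direction and 113 were higher in liver, which is 21.5%. miR-126a-5p had a log2 level of -4.69 ± 0.53 in liver and -5.64 ± 0.37 in serum (n = 12 each), with some but not all serum arrays at the floor. The difference between those means was 0.95 (limma adjusted p = 4.27e-05), and the same 5 scalings gave 1.22 to 1.91. Its serum signal was well above background on 2 of 12 arrays, so that p rests mostly on values near background. With the other serum arrays set to at least their lowest signal well above background, liver was 1.46-fold higher. That value was not tested, and 1 liver array was itself raised to the floor. The labelling took 100 ng of liver RNA and 2.5 ng of serum RNA, and tissue and input cannot be told apart. With no scaling or spike-in scaling this input enters the difference directly, so those fits are no support for its direction. On the slide that held both tissues, 4 week 1 livers exceeded 4 week 6 sera by 2.94 for miR-126a-3p, without overlap.

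In order of level on that scale, the 6 liver groups stood above the 6 serum groups for miR-126a-3p. The liver order was NASH week 1 (1.50 ± 0.05), Control week 1 (1.47 ± 0.23), Control week 6 (1.30 ± 0.15), Control week 2 (1.20 ± 0.03), NASH week 2 (1.11 ± 0.27) and NASH week 6 (0.80 ± 0.34; SD, n = 2 each). The serum order was Control week 6 (-0.14 ± 1.07), Control week 1 (-0.82 ± 0.61), NASH week 1 (-1.19 ± 0.72), Control week 2 (-1.25 ± 0.44), NASH week 2 (-1.29 ± 0.71) and NASH week 6 (-2.78 ± 0.85). Neighbours in this order overlapped in their arrays, other than NASH serum at weeks 2 and 6. For miR-126a-5p in liver the order was Control week 2 (-4.20 ± 0.08), NASH week 1 (-4.46 ± 0.12), Control week 1 (-4.50 ± 0.17), Control week 6 (-4.50 ± 0.25), NASH week 2 (-4.97 ± 0.63) and NASH week 6 (-5.51 ± 0.63). Among these only Control week 2 stood apart from its neighbour, and 1 of the 2 NASH week 6 arrays was at the floor. For both arms NASH week 6 was the lowest liver group.

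In liver both arms were lower on the NASH diet when averaged over the weeks under the main scaling, and the calls depended on how the arrays were scaled. At week 1 miR-126a-3p had levels of 2.80 and 2.68 in NASH livers, against 2.79 and 2.90 in Control livers. At week 2 it had 1.87 and 2.39 in NASH livers, against 2.73 and 2.87 in Control livers. At week 6 it had 1.57 and 2.10 in NASH livers, against 2.54 and 2.74 in Control livers. The diets overlapped at week 1, and both NASH arrays lay below both Control arrays at weeks 2 and 6. With 2 arrays per diet, such a separation in a week can readily arise without a diet difference, here and below. How many of all miRNAs separated in this way was not counted. The Control livers stayed within 2.54 to 2.90 across all weeks. The mean over weeks was 2.23 ± 0.48 in NASH livers and 2.76 ± 0.13 in Control livers (SD, n = 6 each), a difference of -0.53 (SE 0.13, limma adjusted p = 0.0163), and all 6 NASH arrays lay below the mean of their week's Control arrays. Of 388 liver miRNAs tested, 42.3% passed in this comparison and 20.4% passed as lower. In whole tissue, fewer cells of a type and less RNA per cell cannot be told apart.

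miR-126a-5p moved with a larger difference and a larger spread. Its levels were -3.28 and -3.15 in NASH livers at week 1, against -3.46 and -2.78 in Control livers. They were -4.47 and -3.44 in NASH livers at week 2, against -2.71 and -2.49 in Control livers. They were -5.09 and -4.00 in NASH livers at week 6, against -3.55 and -2.78 in Control livers. As for the 3p arm, the diets overlapped at week 1 and not at weeks 2 and 6. Averaged over weeks the level was -3.91 ± 0.76 in NASH livers and -2.96 ± 0.44 in Control livers (n = 6 each), a difference of -0.94 (SE 0.29, limma adjusted p = 0.0397), again lower in 6 of 6 NASH arrays. That is 52.0% of the Control level, against 69.4% for miR-126a-3p. The 5p call was lost on leaving out any 1 of 8 of the 12 liver arrays, with adjusted p of up to 0.0984.

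**Figure D1:**
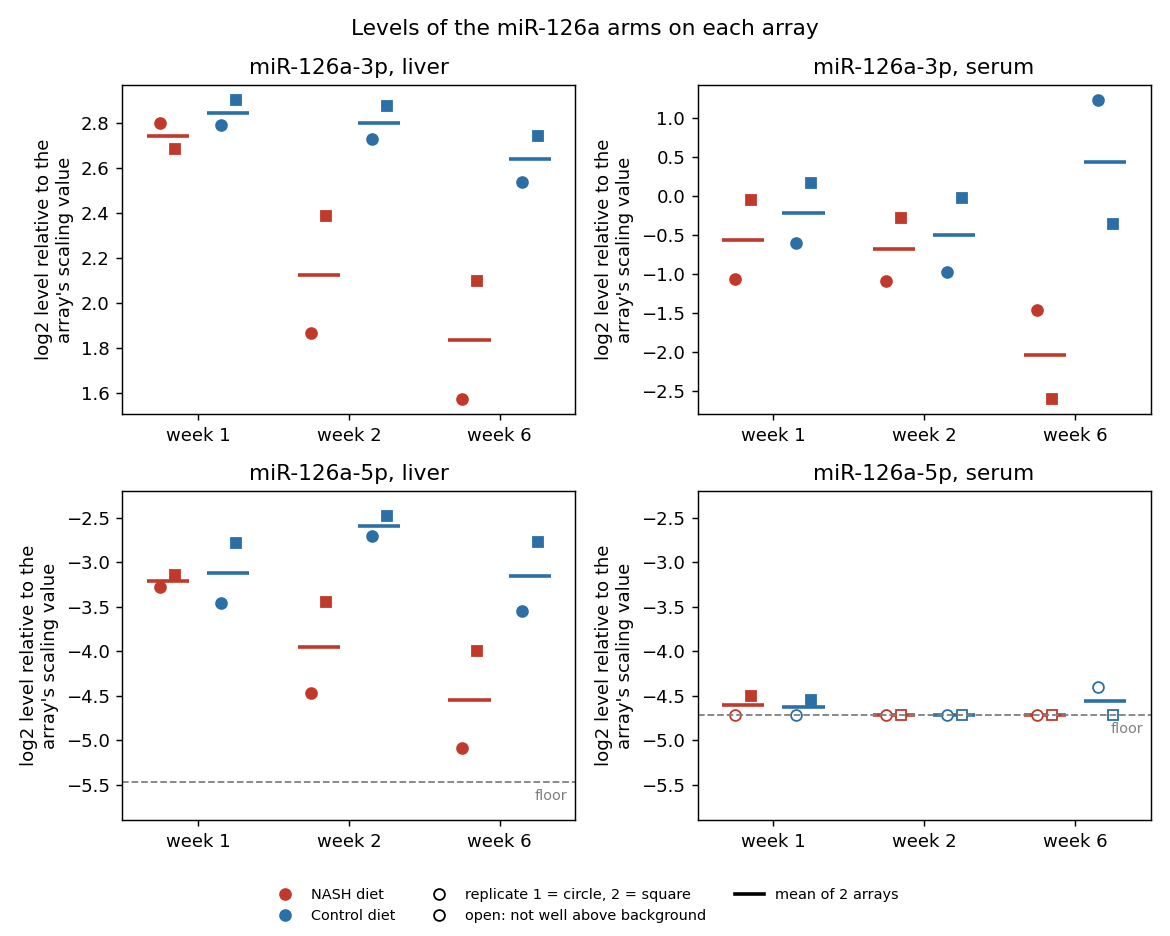
Log2 level of each miR-126a arm relative to the scaling value of the array, by tissue and week, with 1 point per array, circles for replicate 1, squares for replicate 2 and a bar at the mean of 2 arrays. NASH arrays lie below Control arrays in liver at weeks 2 and 6 for both arms, and in serum at week 6 for miR-126a-3p. Open points were not well above background. Serum miR-126a-5p is open on 10 of 12 arrays, of which most lie at the floor, drawn as a dashed line, and is filled on replicate 2 of week 1 in each diet.

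By week, 1 of the 6 liver differences passed in the fit without a block, and 4 of 6 passed with replicate number (in liver, also the slide row) as a block. miR-126a-3p differed by -0.10 at week 1 (adjusted p = 1), by -0.67 at week 2 (adjusted p = 0.0604) and by -0.80 at week 6 (adjusted p = 0.0372), each with an SE of 0.22. With the block, weeks 2 and 6 of miR-126a-3p passed (adjusted p = 0.0280 and 0.0171). Without it, the week 6 call was lost in 9 of 12 fits that each left out 1 array. miR-126a-5p differed by -0.09 at week 1 (adjusted p = 1), by -1.36 at week 2 (adjusted p = 0.0835) and by -1.39 at week 6 (adjusted p = 0.0977), each with an SE of 0.51. With the block, weeks 2 and 6 of miR-126a-5p passed (adjusted p = 0.0136 and 0.0132). The shares of all tested miRNAs that passed were 11.6% at week 1, 30.7% at week 2 and 28.4% at week 6. The test of whether the diet difference itself changed between weeks did not pass for miR-126a-3p (adjusted p = 0.398) or miR-126a-5p (adjusted p = 0.491), where 3.35% of miRNAs passed. Within a diet, 0 of 8 differences between successive weeks passed for the 2 arms in liver (limma adjusted p of 0.193 to 1), and 1 had an unadjusted p under 0.05, miR-126a-3p in NASH livers at week 2 minus week 1 (-0.62, SE 0.22). Between weeks 2 and 1, 4.64% of all miRNAs passed in NASH livers and 1.55% in Control livers, and between weeks 6 and 2 the shares were 3.35% in NASH livers and 0.515% in Control livers. Week 1 livers lay on another slide than the later ones, so that week and slide cannot be told apart there.

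**Figure D2:**
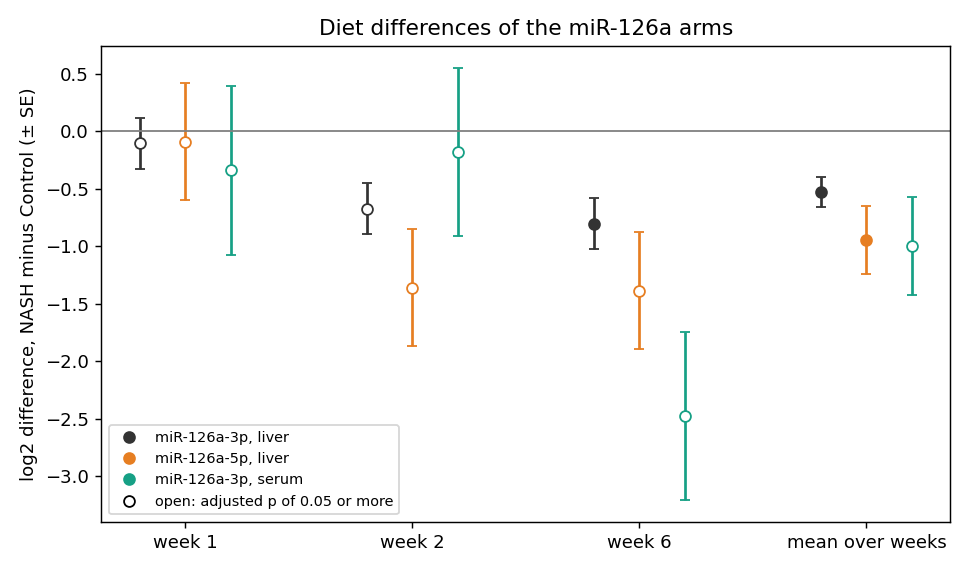
Log2 difference in level, NASH minus Control, for each week and for the mean over weeks, with bars of 1 SE; filled points passed at an adjusted p under 0.05. In liver both arms lie near 0 at week 1 and below 0 at weeks 2 and 6, and the serum difference of miR-126a-3p is largest at week 6 (-2.47).

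The liver difference of miR-126a-3p changed with the scaling. Before any scaling the signal of miR-126a-3p overlapped between the diets in every week. It was 6044 and 4311 in NASH livers at week 1, against 3340 and 4446 in Control livers. At week 2 it was 1839 and 3658 in NASH livers, against 3180 and 3573 in Control livers, and at week 6 it was 1865 and 3399 in NASH livers, against 2289 and 4320 in Control livers. Over 7 scalings the mean difference of miR-126a-3p ran between -0.57 (median centring) and 0.03 (quantile normalization), and it passed under 2 of them, the main one and median centring. Quantile normalization was run on signals with normexp background correction, which adds an offset of 50 to each spot. It therefore changed the signal as well as the scaling. The mean difference of miR-126a-3p was -0.10 with no scaling and -0.03 with spike-in RNA. It was -0.19 (limma adjusted p = 0.287) when the percentile was taken over the 163 probes above background in both tissues. miR-126a-5p was below 0 under all 7, between -0.99 and -0.45, and passed under 3 of them. The signal of all miRNAs shifted too: the median of the 218 miRNAs detected on all liver arrays was -0.06 under the main scaling, 0.30 with no scaling and 0.37 with spike-in scaling. Relative to that median, miR-126a-3p was at -0.47 to -0.39 under 6 of the 7 scalings and at 0.10 under quantile normalization. Relative to it, miR-126a-5p was at -0.89 to -0.81 under the same 6 and at -0.41 under quantile normalization. Each of those 6 divides an array by 1 value or leaves it undivided, so its miRNAs above the floor shift alike. They therefore largely repeat 1 result and are not 6 separate ones. A lower difference than that of miR-126a-3p was held by 20.8% to 22.7% of the others detected on all liver arrays under those 6. Under quantile normalization the share was 63.9%. The main scaling called 85 liver miRNAs higher and 79 lower. The split was 63 and 37 with the percentile over all probes, 120 and 35 with the probes above background in both tissues, 117 and 9 with no scaling, and 145 and 13 with spike-in scaling. With median centring it was 82 and 94, and with quantile normalization 115 and 130, where lower calls outnumbered higher ones.

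**Figure D3:**
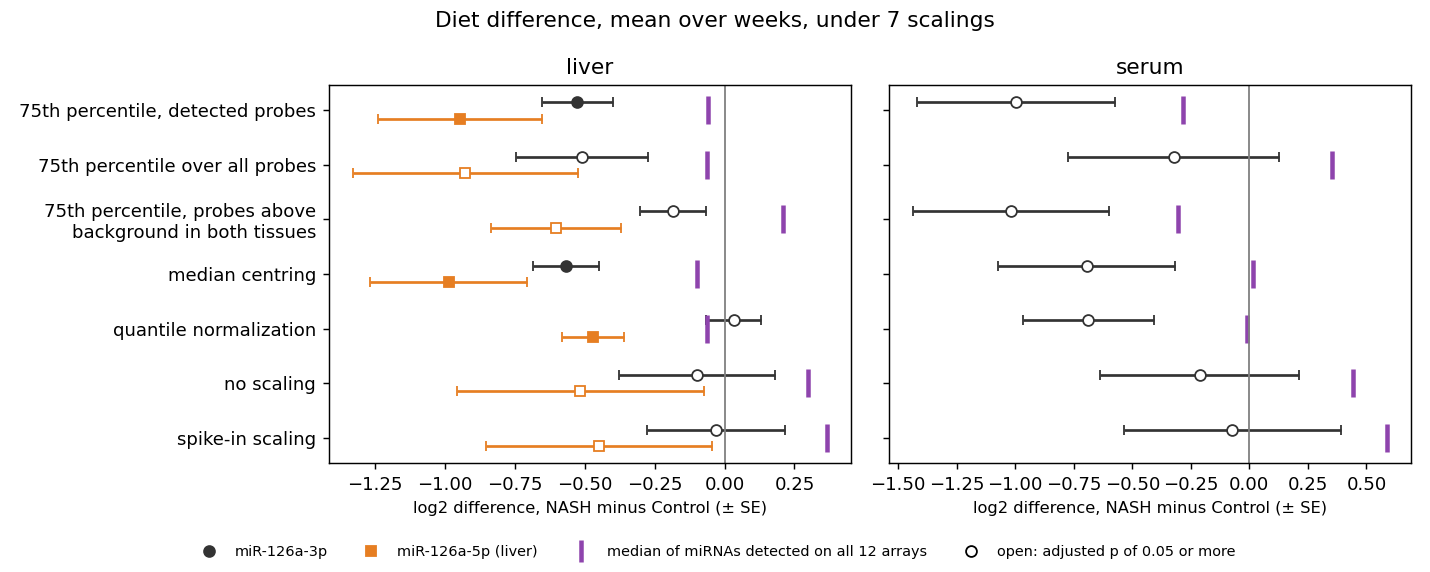
Log2 difference, NASH minus Control, averaged over weeks, under 7 scalings of the arrays in liver and serum, with bars of 1 SE, filled points for adjusted p under 0.05, and a purple bar at the median of the miRNAs detected on all 12 arrays of the tissue. In liver miR-126a-3p lies left of the median miRNA under 6 of 7 scalings and miR-126a-5p under all 7. In serum miR-126a-3p lies left of it under all 7. All scalings but quantile normalization shift the miRNAs above the floor of an array alike, so their positions beside the median largely repeat 1 result. Quantile normalization was run on signals with normexp background correction.

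The ratio of the arms on 1 array needs no scaling, and it did not differ between the diets at the threshold. The log2 signal of miR-126a-5p minus that of miR-126a-3p was -6.14 ± 0.32 in NASH livers and -5.72 ± 0.36 in Control livers (SD, n = 6 each), a difference of -0.42 (exact permutation within weeks, two-sided p = 0.0833). Only the difference between groups can be read here, not the size of the ratio. It was -6.07 and -5.83 in NASH livers at week 1, against -6.25 and -5.68 in Control livers. At week 2 it was -6.34 and -5.83 in NASH livers, against -5.44 and -5.36 in Control livers, and at week 6 it was -6.66 and -6.10 in NASH livers, against -6.08 and -5.52 in Control livers. The weekly differences were 0.01, -0.68 and -0.58 at weeks 1, 2 and 6. The diets did not overlap at week 2 or, by a narrow margin (-6.10 against -6.08), at week 6. Replicate 2, which lay in the second row of each slide, had the higher ratio in 6 of 6 groups, by 0.42 on average, as large as the diet difference. The 5p level alone was higher in replicate 2 in 6 of 6 groups, by 0.65 on average, and the 3p level in 5 of 6, by 0.23. Between tissues the ratio was lower in liver than in serum by 1.21 (exact permutation within diet and week, p = 8.57e-05), but miR-126a-5p was not well above background on 10 of the 12 serum arrays, and the sign turned with the total signal per miRNA (0.56, exact p = 0.257).

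**Figure D4:**
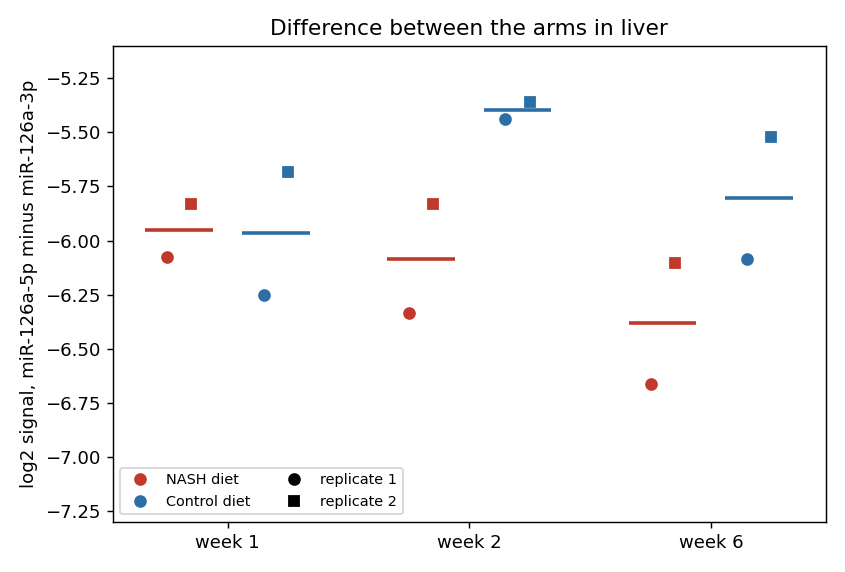
Log2 signal of miR-126a-5p minus that of miR-126a-3p on each liver array, by week and diet, with circles for replicate 1, squares for replicate 2 and a bar at the mean of 2 arrays. The diets overlap at week 1 and, with 2 arrays each, do not at week 2 or, by a narrow margin, at week 6. Replicate 2 lies above replicate 1 in all 6 groups.

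Other miRNAs linked to endothelium moved in both directions in liver. Of 13 tested on an endothelial or angiogenic list of 14, 6 rose, 2 fell and 5 did not pass, with a median difference of -0.01. Over all 388 miRNAs tested 42.3% passed and the median was 0, and the list counts below stand beside that share. Of the 6 that rose, miR-222-3p was detected on 6 NASH and 0 Control livers and miR-132-3p on 6 and 1, so that they entered the test through the NASH arrays. Among the 11 members detected on at least 2 arrays of each diet, 4 rose and 2 fell (median -0.09). Among its 4 most abundant members, miR-23a-3p rose by 0.50 (SE 0.09) and miR-24-3p rose by 0.31 (SE 0.06), miR-23b-3p fell by 0.42 (SE 0.05) and miR-130a-3p, known to target the homeobox genes Gax and HoxA5 in human endothelial cells, was at -0.01 (SE 0.14, adjusted p = 1). miR-23, miR-27 and miR-24 are made together from paired clusters that many cell types share. The summed level of the list was 13.1 to 15.3 in NASH livers and 11.7 to 15.1 in Control livers, on the linear scale. Of 9 tested on a platelet list of 12, 5 rose, 0 fell and 4 did not pass, with a median of 0.14. Its most abundant member, miR-21a-5p, which many cell types make, was at -0.58 (SE 0.27, adjusted p = 0.140), and miR-223-3p, which is also on the list of myeloid and lymphoid cells, rose by 1.73 (SE 0.19). Of the list's other abundant members, miR-24-3p is given above and miR-151-5p was at -0.04 (SE 0.04, adjusted p = 0.420).

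Markers of other cells moved on the same liver arrays, and their part in the miR-126a differences was not tested. Of 9 hepatocyte miRNAs 8 fell and 1 did not pass (median -0.98), among them miR-122-5p (-0.98, SE 0.05) and miR-192-5p (-1.26, SE 0.13), miR-148a-3p (-0.68, SE 0.12) and miR-194-5p (-1.06, SE 0.06). Of all liver miRNAs 20.4% fell. The summed level of the hepatocyte list was 66.7 to 127 in NASH livers and 166 to 191 in Control livers, without overlap. Of 5 red cell miRNAs 3 fell and 2 did not pass (median -0.84), among them miR-451a, the erythroid miRNA that is processed by Argonaute 2 (-1.09, SE 0.27), with a summed level of 3.06 to 7.21 in NASH livers and 6.21 to 9.85 in Control livers. Of 5 myeloid and lymphoid miRNAs 3 rose and 2 did not pass (median 0.74), among them miR-342-3p (2.41, SE 0.10), and the sum was 2.77 to 4.20 in NASH livers and 1.06 to 1.52 in Control livers, without overlap. Of the red cell list and of the myeloid and lymphoid list 60% each passed, and of the platelet list 55.6%, beside 42.3% of all. Of the 4 muscle miRNAs none was tested in liver.

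Over the 12 liver arrays the levels most like that of miR-126a-3p were those of miR-20a-5p (Pearson r = 0.986), miR-101a-3p (0.980), miR-20b-5p (0.979), miR-101b-3p (0.974) and miR-7a-5p (0.973), out of 217 others detected on all arrays. The median r over those 217 was 0.148, and the arrays share slide, scaling and diet. miR-126a-5p, cut from the same hairpin, came 20th of the 217 with r = 0.941. The mean diet differences of those 5 were -0.39 for miR-20a-5p, -1.26 for miR-101a-3p, -0.34 for miR-20b-5p, -1.28 for miR-101b-3p and -0.99 for miR-7a-5p. The difference of miR-20b-5p did not pass (adjusted p = 0.0695). Because r was taken over arrays of both diets, the diet difference entered the choice of these 5, and their direction is not independent of it.

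In serum miR-126a-3p did not pass for the mean over weeks, and its one wide gap between the diets was at week 6. At week 1 its level was -1.06 and -0.06 in NASH serum, against -0.60 and 0.16 in Control serum. At week 2 it was -1.09 and -0.28 in NASH serum, against -0.98 and -0.03 in Control serum. At week 6 it was -1.47 and -2.61 in NASH serum, against 1.23 and -0.36 in Control serum. The diets overlapped at weeks 1 and 2 and not at week 6, where the Control arrays were 1.59 apart. The mean was -1.09 ± 0.91 in NASH serum and -0.10 ± 0.77 in Control serum (SD, n = 6 each), a difference of -0.997 (SE 0.42, limma adjusted p = 0.182), and 4 of 6 NASH arrays lay below the mean of their week's Control arrays. Of 426 serum miRNAs tested, 18.8% passed. By week the differences were -0.34 (adjusted p = 1), -0.18 (adjusted p = 1) and -2.47 (adjusted p = 0.0736) at weeks 1, 2 and 6, each with an SE of 0.73, where 1.41%, 2.58% and 12% of miRNAs passed. The change of the difference between weeks had an adjusted p of 0.737, and 0.469% of miRNAs passed. Within a diet, 0 of 4 differences between successive weeks passed (limma adjusted p of 0.727 to 1, and 0 with an unadjusted p under 0.05). Of all miRNAs, 0% passed in NASH serum in either step, against 1.17% in Control serum between weeks 2 and 1 and 0.235% between weeks 6 and 2. Week 6 sera lay on another slide than those of weeks 1 and 2, so week and slide cannot be told apart there.

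The serum call changed with the filter, the floor and the background correction. The mean difference of -0.997 passed when the fit held only the miRNAs detected on all 12 serum arrays (adjusted p = 0.00768) and with a floor 4 times lower (adjusted p = 0.0246), and week 6 passed in the same fits (adjusted p = 3.28e-04 and 0.00271). The shares of all miRNAs that passed for the mean were 37.2% of the 196 tested in the stricter fit and 32.9% with the lower floor. With normexp background correction the mean was -0.78 (limma adjusted p = 0.00187), where 85% of all serum miRNAs passed, 81.2% as lower, and the median of all was -0.54. This correction added an offset of 50 to each spot before scaling. The scaling value was higher on NASH serum arrays, by 0.78 (log2) under the main scaling. The part of the offset and of the scaling value in the normexp difference of miR-126a-3p was not tested. Under 7 scalings the mean difference ran between -1.02 and -0.07 and passed under 0 of them. Relative to the median of the 196 miRNAs detected on all serum arrays it was -0.71 to -0.66 under all 7. All of these but quantile normalization shift the miRNAs above the floor of an array alike, so they largely repeat 1 result. A lower difference than that of miR-126a-3p was held by 6.15% to 14.9% of the others detected on all serum arrays. The main scaling called 21 serum miRNAs higher and 59 lower. The split was 32 and 7 with the percentile over all probes, 36 and 39 with median centring, 53 and 45 with quantile normalization, 37 and 7 with no scaling, and 30 and 3 with spike-in scaling.

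miR-126a-5p gave no diet comparison in serum. At weeks 2 and 6 it was not well above background on any of the 8 arrays, and at week 1 it was so on 1 array of each diet, with a signal of 25.5 in NASH serum and 27.5 in Control serum. It lay at the floor on 5 of 6 NASH arrays and on 4 of 6 Control arrays. Its diet difference in serum minus that in liver came to 0.90 (SE 0.30, adjusted p = 0.0313) with those serum values at the floor. With the floor 4 times lower it was 0.08 (adjusted p = 0.920). For miR-126a-3p the same difference between tissues was -0.47 (SE 0.44, limma adjusted p = 0.408), in a comparison that 34.8% of 293 miRNAs passed.

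Lists of other sources were read on the same serum arrays, and their part in the values of miR-126a-3p was not tested. Of 14 endothelial or angiogenic miRNAs 2 rose, 1 fell and 11 did not pass (median -0.13). Over all 426 miRNAs tested 18.8% passed and the median was -0.11, and the list counts below stand beside that share. For this list the summed level was 13.4 to 28.3 in NASH serum and 17.5 to 28.2 in Control serum. The most abundant were miR-23a-3p (-0.33, SE 0.20), miR-92a-3p (-0.33, SE 0.14), miR-24-3p (-0.14, SE 0.20) and miR-27a-3p (0.16, SE 0.20), none of which passed. Of 9 platelet miRNAs 1 rose, 2 fell and 6 did not pass (median -0.35). The most abundant, miR-21a-5p, was the 1 that rose, by 1.33 (SE 0.29). Of the next in level, miR-223-3p did not pass (-0.35, SE 0.26), miR-24-3p is given above and miR-150-5p fell (-1.32, SE 0.30). The other that fell was miR-151-5p (-1.01, SE 0.21). The sum of the platelet list was 11.3 to 22.4 in NASH serum and 9.43 to 15.7 in Control serum. Of 4 red cell miRNAs 2 fell and 2 did not pass (median -1.05), and the sum was 10.0 to 78.6 in NASH serum and 32.8 to 73.7 in Control serum. Of 4 muscle miRNAs 2 fell, miR-133a-3p (-2.18, SE 0.34) and miR-133b-3p (-2.18, SE 0.33), and the sum was 1.87 to 8.996 in NASH serum and 13.7 to 29.5 in Control serum, without overlap. Of 8 hepatocyte miRNAs 5 rose and 3 did not pass (median 1.23), among them miR-122-5p (3.82, SE 0.57). Of the 5 that rose, miR-122-3p was detected on 6 NASH and 0 Control sera and miR-193a-3p on 6 and 1, so that they entered the test through the NASH arrays. Among the 5 members detected on at least 2 arrays of each diet, 3 rose and 0 fell. Of 5 myeloid and lymphoid miRNAs 1 rose, 2 fell and 2 did not pass (median -0.35).

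Over the 12 serum arrays the levels most like that of miR-126a-3p were those of miR-99a-5p (Pearson r = 0.918), miR-199a-3p (0.884), miR-451a (0.880), miR-26a-5p (0.861) and miR-15b-5p (0.859), out of 195 others detected on all arrays, whose median r was 0.221. None of these 5 was among the 5 most alike in liver. Their mean diet differences lay between -1.24 and -0.64, and that of miR-26a-5p passed (-1.08, adjusted p = 0.0451), where 18.8% of all serum miRNAs passed. As in liver, r was taken over arrays of both diets. The diet difference therefore entered the choice of these 5, and their direction is not independent of it.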

How the data were processed

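Cy3 signal was read on 24 Agilent miRNA arrays, 1 sample each. Per the submitters' processing notes and the file headers, the deposited files are spot intensity tables from Agilent Feature Extraction 11.5, with background-subtracted signals. The 15 spots of each probe were averaged without those flagged as outliers. A probe was well above background when at least 50% of its usable spots were so flagged. Signals were divided by a 75th percentile of the array, over probes that every array of that tissue measured well above background, set to a floor (each array's 5th percentile over such measured probes, median of the arrays; log2 -5.475 in liver and -4.713 in serum), and log2 transformed. The probe with the highest mean stood for a miRNA. miRNAs detected on at least 2 arrays were tested (388 in liver, 426 in serum), with group means fitted by limma 3.58.1 in R 4.3.3, 6 residual degrees of freedom and Benjamini-Hochberg adjustment over all tested, at 0.05. The fits were tested on simulated data. The arm difference was tested by exact permutation of diets within weeks, whose smallest p is 0.00926, or of tissues within diet and week, whose smallest is 4.29e-05. The named miRNAs were the 2 arms, miR-126b, the 5 miRNAs most correlated with miR-126a-3p in each tissue, and members of 6 lists (endothelial or angiogenic, platelet, hepatocyte, red cell, myeloid and lymphoid, muscle), up to 4 by level; other members named were chosen after their values were seen. The members and lists were chosen with earlier results of these data known. Alternatives covered the scaling, background correction, probe summary, floor, filter, intensity trend, replicate and slide row blocks, and leaving out each array. Normexp background correction added an offset of 50 to each spot, and quantile normalization was run on those signals.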

Additional observations from a re-analysis of the deposited data

Results flagged for a closer look

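The diet difference of miR-126a-5p in serum minus that in liver was 0.899 on the log2 scale, and the test of the difference between tissues passed (limma adjusted p = 0.0313). Its liver difference was -0.94 (SE 0.29, n = 6 arrays per diet). In serum it was not well above background on 10 of 12 arrays and lay at the floor on 5 of 6 NASH arrays and 4 of 6 Control arrays. The floor held its serum difference near 0 (-0.05). With the floor 4 times lower the difference between tissues was 0.080 (limma adjusted p = 0.920). The passed test therefore cannot show that the diet effect differed between the tissues.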

How the results depend on the processing

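Signal over background limits miR-126a-5p, and 2 arrays a group limit both arms. With the 75th percentile over all probes the mean liver difference was -0.51 for miR-126a-3p and -0.93 for miR-126a-5p (neither passed), week 6 of miR-126a-3p was -0.59 (lost), and values turned to 0.079 (3p) and 0.093 (5p) in liver at week 1, to 0.88 for serum miR-126a-3p at week 2, and to 0.19 for its serum minus liver difference; that of miR-126a-5p was 0.93 (lost). With the probes above background in both tissues, a scaling chosen after seeing the data, the liver means were -0.19 (3p) and -0.60 (5p), week 6 of 3p was -0.50 and the 5p tissue difference was 0.54, all lost, and week 1 turned to 0.029 (3p) and 0.043 (5p). With no scaling the means were -0.10 (3p) and -0.52 (5p), week 6 of 3p was -0.32 and the 5p tissue difference was 0.50, all lost, and week 1 turned to 0.41 (3p) and 0.42 (5p) and serum week 2 to 0.89. With spike-in scaling the means were -0.031 (3p) and -0.45 (5p), week 6 of 3p was -0.29 and the 5p tissue difference was 0.46, all lost, and week 1 turned to 0.52 (3p) and 0.54 (5p) in liver and to 0.43 for 3p in serum, and serum week 2 to 0.75. Quantile normalization was run on normexp-corrected signals. With it the liver mean of 3p turned to 0.032 and its week 1 to 0.21, and its week 6 was -0.11 (lost). Liver 5p at week 2 (-0.72) and serum 3p at week 6 (-1.65) passed. With median centring 3p at week 2 passed in liver (-0.75) and turned in serum (0.19). The cause was not tested.

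With normexp, 5p passed in liver at weeks 2 (-0.71) and 6 (-0.80). With it 3p passed in serum for the mean (-0.78) and week 6 (-1.86), and the 5p tissue difference turned to -0.035. Its offset of 50 was added before scaling, and the scaling value of the main fit was higher on NASH arrays. The part of either in these calls was not tested. With the total signal per miRNA 3p (-0.72) and 5p (-1.56) passed in liver at week 2, the 5p tissue difference was 0.86 (lost), and the ratio of the arms between tissues turned to 0.56. With the median of probes the ratio in liver was -0.35 (exact permutation p = 0.0278), but this averages in the second 5p probe, not well above background on any liver array. The same ratio in serum, 0.13 (exact p = 0.731), rests on 5p signals that were not well above background on 10 of 12 arrays and is no diet comparison; its values were -0.046 with the median of probes, -0.078 with the replicate block and -0.044 to 0.31 on leaving out 1 array. With the floor 4 times lower, or with only miRNAs detected on all 12 arrays, the values -0.67 (3p, week 2), -1.36 and -1.39 (5p, weeks 2 and 6) in liver and -0.997 (mean) and -2.47 (week 6) for 3p in serum were unchanged and passed; with the lower floor the 5p tissue difference was 0.080 (lost), and with the stricter filter miR-126a-5p left the serum fit and gave no tissue difference. With no detection filter, and so 1881 miRNAs tested, the liver means of -0.53 (3p) and -0.94 (5p) and week 6 of 3p (-0.80) no longer passed. The other 3p probe gave -0.52 in liver (adjusted p = 0.0166) and changed no call; the other 5p probe lay at the floor on 12 of 12 arrays of each tissue, so no value was had from it. The liver minus serum level kept its direction and call under 5 other scalings. Its size ran between 2.94 and 4.11 for 3p, against 2.48, and between 1.22 and 1.91 for 5p, against 0.95. With no scaling or spike-in scaling the RNA input, 100 ng for liver and 2.5 ng for serum, enters the value directly. Those settings are no support for its direction. The 5p values rest on serum signals mostly not well above background.

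As a check of pairing, the level in replicate 1 minus that in replicate 2 was taken for each miRNA in each diet and week. Between NASH and Control these differences correlated over miRNAs at -0.46, 0.33 and 0.44 at weeks 1, 2 and 6 in liver. In serum they correlated at 0.53, 0.13 and 0.18, where 1 week 6 array has no number. The numbers were therefore not taken to pair the arrays. With the replicate block, which in liver is also the slide row block, -0.67 (3p, week 2; adjusted p = 0.0280), -1.36 and -1.39 (5p, weeks 2 and 6; 0.0136 and 0.0132) passed, and the pairs gave a ratio of -0.42 in liver (exact sign-flip p = 0.0938; smallest possible 0.0313). Crossing the numbers at week 1, chosen after seeing the data, left 161 liver miRNAs called, against 172 with the numbers as labelled and 164 with no block.

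Leaving out 1 array gave -0.61 to -0.44 for the liver mean of 3p (12 of 12 passed) and -1.13 to -0.76 for that of 5p. The 5p call was lost without NASH week 1 replicate 1 (-0.92) or 2 (-0.97), NASH week 2 replicate 1 (-0.77), NASH week 6 replicate 1 (-0.76), Control week 1 replicate 2 (-0.83), Control week 2 replicate 1 (-0.98) or 2 (-0.94), or Control week 6 replicate 2 (-0.82). In liver 3p gave -0.93 to -0.41 at week 2 (passed without NASH week 2 replicate 2, or NASH week 6 replicate 1 or 2) and -1.07 to -0.54 at week 6 (lost without any array of week 1, any Control array of weeks 2 and 6, or NASH week 6 replicate 1). In liver 5p gave -0.47 to 0.25 at week 1 and -1.93 to -0.84 at week 6. In serum 3p gave -0.84 to 0.16 at week 1, -0.66 to 0.38 at week 2 and -3.23 to -1.56 at week 6 (passed without Control week 6 replicate 2). The 5p tissue difference was 0.72 to 1.08, lost without any of 10 of 24 arrays. The ratio of the arms was -0.51 to -0.32 in liver (exact p of 0.0278 without Control week 1 replicate 1 and 0.0463 without NASH week 1 replicate 2).

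Calls in liver numbered 164, against 258 with the lower floor and 100 over all probes. Calls in serum numbered 80, against 39 over all probes, 44 with no scaling, 33 with spike-in scaling, 362 with normexp, 140 with the lower floor, 35 with no detection filter, 51 without NASH week 1 replicate 1, 49 without NASH week 2 replicate 1 and 48 without NASH week 6 replicate 2. Calls lower in liver numbered 79, against 130 with quantile normalization, 172 with normexp and 50 with no filter; in serum they numbered 59, against 346 with normexp, 101 with the lower floor and 25 with no filter.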
